A study of Mus musculus with 9 samples.

Results

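Mouse embryonic fibroblasts were given reprogramming factors, and the colonies that came out of cultures that also received the gene for Yes-associated protein (YAP) were set against induced pluripotent stem cells (iPSCs) from cultures given an empty vector. The comparison uses 6 of the 9 libraries of the series, chosen by their column headings and labels. The 3 YAP colony libraries were made from colonies that were non-pluripotent and positive for a YAP-mCherry fusion, picked from YAP-transduced fibroblast cultures and kept in embryonic stem cell medium on feeder cells with 1 ug/mL doxycycline. The 3 control iPSC libraries were made from Oct4:GFP-positive iPSCs of empty-vector cultures, kept in the same kind of medium on feeder cells. The labels do not say whether doxycycline stayed in the iPSC medium. Both vectors were lentiviral, all reprogramming was done with 1 ug/mL doxycycline, and the labels give a culture time of 75 days. The labels do not state that the replicates were separate cultures, so p-values here reflect the spread among libraries that may be technical repeats. The groups differ at once in vector and colony type, which cannot be told apart.

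Reprogramming by Oct4, Sox2, Klf4 and Myc silences the fibroblast programme, re-forms an epithelium and then switches on the native network of naive pluripotency. YAP is the co-activator held in check by the Hippo kinases. In the nucleus it binds TEAD transcription factors, often beside AP-1, and switches on genes of growth, cell adhesion, cytoskeleton and matrix. Rows for Pou5f1, Sox2, Klf4 and Myc can hold transcripts of the reprogramming factors, and the row for Yap1 can hold transcripts of the vector, beside those of the native genes.

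Expression was given as FPKM, fragments scaled by gene length and by the number of mapped fragments. Of 48640 rows in the table, 13674 had a mean of at least 1 FPKM over the 6 libraries and were tested. The summed FPKM per library was 509321 to 529335 in the YAP colonies and 592781 to 617178 in the control iPSCs. Low values recurred at steps from which relative depth could be read. With YAP colony replicate 1 set to 1, the other colony libraries came to 1.10 and 1.03 and the control libraries to 1.37, 1.29 and 1.19. Absolute depth is unknown. Across tested rows the correlation of log2(FPKM + 1) was 0.960 to 0.978 within the groups and 0.705 to 0.751 between them, as a description over genes that are not independent. Control replicate 3 held 2.92% of its FPKM in ribosomal RNA rows, against at most 0.480% in the other 5 libraries.

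A gene was called when limma gave it a Benjamini-Hochberg adjusted p below 0.05 and its log2 fold change, YAP colonies over control iPSCs on the log2(FPKM + 1) scale, was at least 1 in size. This was so for 4340 rows, 31.7% of those tested. Of these, 2129 (15.6%) were higher in the YAP colonies and 2211 (16.2%) were lower, and the median change over all tested rows was -0.04. Some rows were all or nothing. At 10 FPKM or more in every library of a group and under 0.5 in every library of the other stood 82 rows on the YAP colony side and 173 on the control iPSC side. In the text, a gene rose or fell only if it was called, and each count of a list can be read beside these 15.6% and 16.2%. An adjusted p below 0.05 at any fold was reached by 68.2% of rows. The groups did not overlap in 73.4% of rows, with the YAP colonies higher in 35.4% and lower in 38%.

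**Figure D1:**
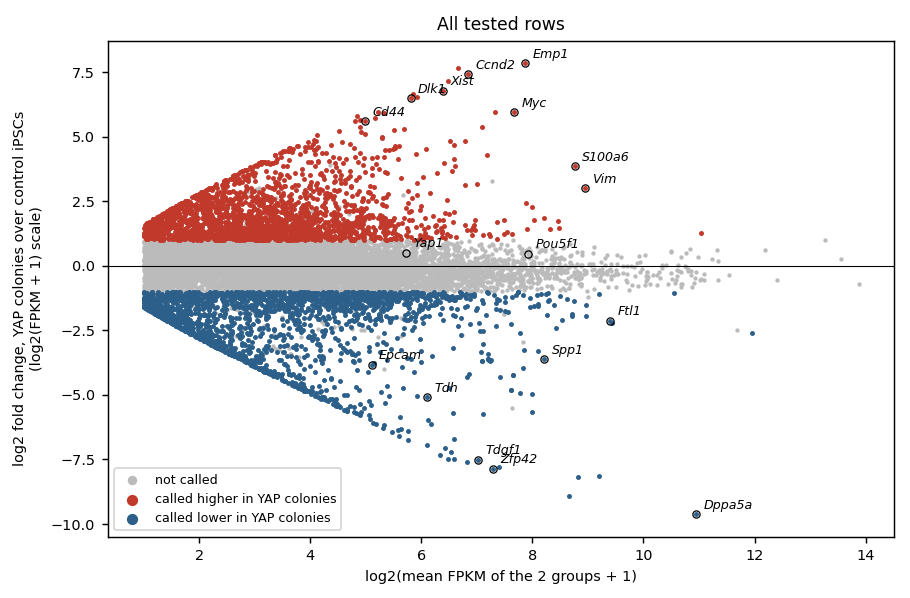
Log2 fold change (YAP colonies over control iPSCs) against mean level for all tested rows, both on the log2(FPKM + 1) scale. Red rows were called higher and blue rows lower in YAP colonies, and circled genes are described in the text. Emp1 lies at 7.84 and Dppa5a at -9.61, while Pou5f1 and Yap1 lie in the grey band.

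The groups differed in the level of chromosome 1 genes and in Xist and Y-linked RNA. Rows of chromosome 1 stood higher along the whole chromosome. Its 637 tested protein-coding genes had a median log2 fold change of 0.68, against -0.06 on the other autosomes, and 77.7% of them were above 0. Relative to the other autosomes, the median of chromosome 1 genes was 0.77, 0.72 and 0.70 in the YAP colony libraries, and -0.03, 0.03 and -0.0035 in the control iPSC libraries. All 10 windows of 20 Mb along the chromosome had medians between 0.47 and 0.83. Medians of chromosomes 2 to 19 lay between -0.31 and 0.21. Of the chromosome 1 genes 222 rose and 51 fell. With each chromosome's median set to 0 these were 143 and 84. What underlies the shift was not tested.

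**Figure D2:**
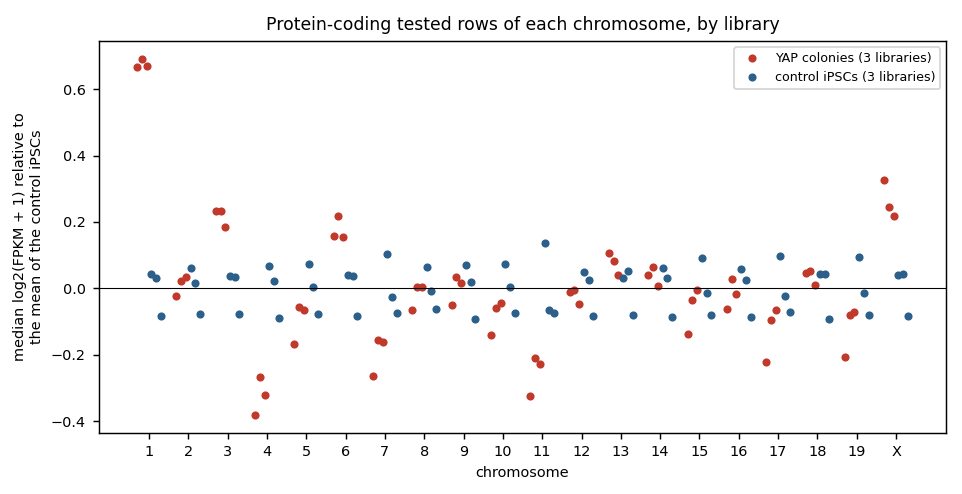
Median log2(FPKM + 1) of the tested protein-coding genes of chromosomes 1 to 19 and X, relative to the mean of the control iPSCs, one point per library. The 3 YAP colony libraries (red) stand apart on chromosome 1, and no other chromosome plotted departs from 0 as far.

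Xist, which coats and silences an X chromosome in female cells, was at 203, 147 and 148 FPKM in the YAP colonies, against 0.451, 0.574 and 0.481 FPKM in the control iPSCs. The Y-linked gene Eif2s3y, a translation initiation factor gene, was at 0.373, 0 and 0.0218 FPKM in the YAP colonies, against 32.8, 48.4 and 41.5 FPKM in the control iPSCs. Ddx3y and Uty, also Y-linked, averaged 0.03003 ± 0.0354 and 0.0109 ± 0.0189 FPKM in YAP colonies, against 9.91 ± 2.25 and 4.91 ± 0.882 FPKM in control iPSCs (mean ± SD, n = 3 in each group, here and below). The YAP colonies thus carried Xist with hardly any Y-linked RNA and the control iPSCs the reverse, so the embryo of origin and the group cannot be told apart. X-linked protein-coding genes other than Xist rose in 27.3% and fell in 16.6% of 410 cases, against 16.8% and 16.3% on the autosomes.

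Pluripotency genes had the lowest median of all lists, and a few members of the network were not called. In the naive pluripotency list 25 of 30 tested members fell and 0 rose, with a median of -4.33. The colonies were labelled non-pluripotent and the iPSCs Oct4:GFP-positive, so the choice of groups itself favoured falls in this list. Members near 0 in the YAP colonies, such as Prdm14, Lin28a, Dppa3 and Sox15, passed the filter only through the control iPSCs and could only fall. Dppa5a, a marker of naive cells, was at 5.38, 3.86 and 3.08 FPKM in the YAP colonies, against 4485, 3912 and 3445 FPKM in the control iPSCs. Tfcp2l1 and Klf2, transcription factors of the naive network, averaged 0.454 ± 0.184 and 0.289 ± 0.171 FPKM in YAP colonies, against 46.3 ± 6.28 and 25.6 ± 4.34 FPKM in control iPSCs, and Prdm14, which guards naive cells against differentiation, 0.0184 ± 0.0318 FPKM in YAP colonies against 11.4 ± 2.14 FPKM in control iPSCs. Lin28a, the inhibitor of let-7 maturation, was at 0.283, 0.07202 and 0.0769 FPKM in the YAP colonies, against 39.6, 45.9 and 34.5 FPKM in the control iPSCs. For each of these genes every YAP colony library lay below every control library. Dppa3 and Sox15 were listed at 0 in all 3 YAP colony libraries, beside 37.6, 25.5 and 33.2 FPKM and 48.5, 39.8 and 38.9 FPKM in the control iPSCs.

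Among the members that were not called were Pou5f1, Klf4, L1td1 and Trim28. L1td1, an RNA-binding protein gene of stem cells, was at 83.3, 96.4 and 106 FPKM in the YAP colonies, against 157, 171 and 143 FPKM in the control iPSCs. Nanog fell (log2 fold change -1.55, SE 0.13, limma adjusted p = 5.05e-05) but remained at 125, 114 and 158 FPKM in the YAP colonies, beside 390.1, 400.3 and 366 in the control iPSCs. In these colonies RNA in the rows of Pou5f1, Nanog and L1td1 was thus present while Zfp42, Esrrb, Tdgf1 and Utf1 were each below 1 FPKM on average. The rows of Pou5f1 and Klf4 can hold transcripts of the reprogramming factors, so the level of the native genes cannot be told. Of the formative and primed list, genes of the next stage of the epiblast, 6 of 11 tested members fell and 2 rose. The 2 were Lef1, a WNT effector, and Sall2. Otx2 and Dnmt3b fell, and Fgf5, the usual primed marker, was near 0 in both groups.

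**Figure D3:**
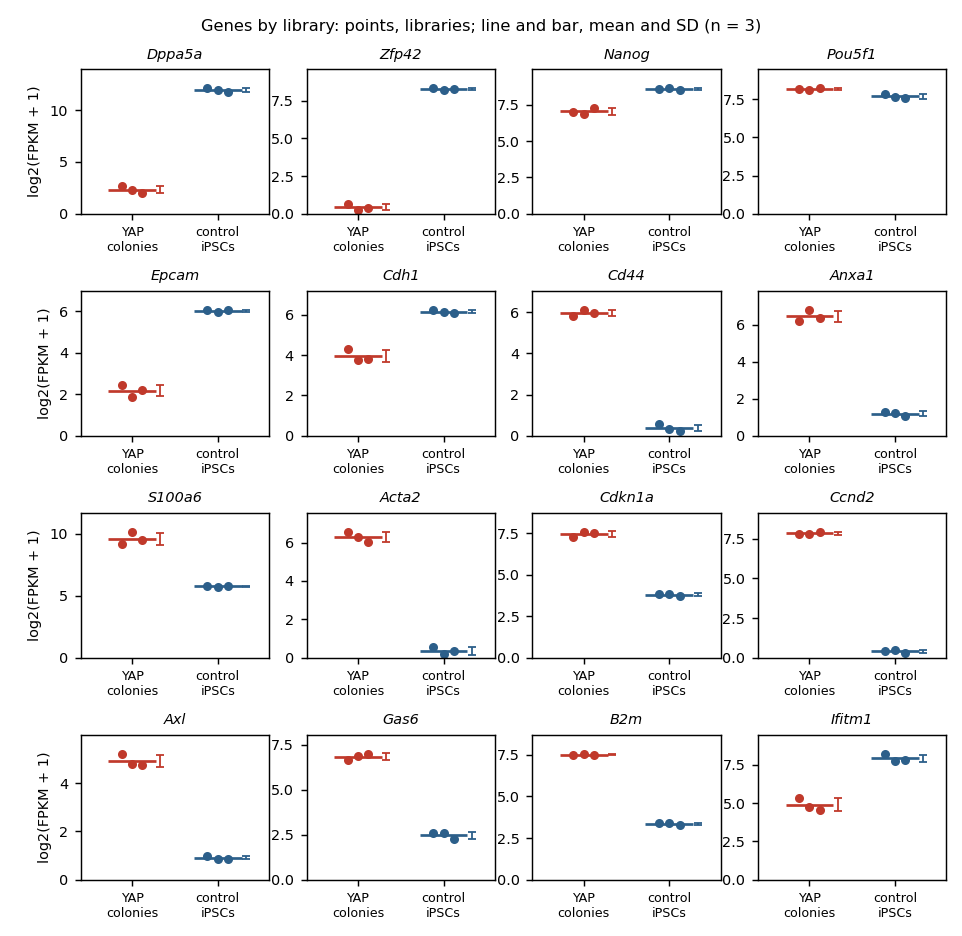
Values by library of genes from the text on the log2(FPKM + 1) scale. YAP colonies are red on the left and control iPSCs blue on the right, with the mean and SD of 3 libraries beside the points. The groups are apart in each panel, including Pou5f1, which was not called because its log2 fold change was 0.47.

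Among 21 enzymes and readers of DNA methylation 7 fell, 3 rose and 11 were not called. Dnmt3l, the cofactor of de novo methylation, was at 0.132, 0.251 and 0.1301 FPKM in the YAP colonies, against 259, 217 and 201 FPKM in the control iPSCs. Tet1, which oxidises methylcytosine, fell to 3.76, 2.78 and 3.32 FPKM in the YAP colonies, against 27.3, 31.2 and 24.9 in the control iPSCs, while Tet3 from the same family rose to 10.3, 10.3 and 10.7 FPKM, against 1.05, 0.877 and 0.643. Zfp57, which keeps imprints, and Uhrf1, which brings the maintenance enzyme to new DNA, fell to 45.6 ± 1.95 and 32.5 ± 8.98 FPKM in YAP colonies, against 215 ± 18.4 and 72.7 ± 3.67 FPKM in control iPSCs. Without YAP colony replicate 1 the log2 fold change of Uhrf1 was -0.93 and it was not called. Dnmt1 and Dnmt3a were not called. Of 32 Polycomb genes, repressors of developmental genes, 9 fell and 3 rose, and 5 rose without YAP colony replicate 2 or control replicate 1. Cbx7, the chromobox subunit of stem cells, averaged 9.16 ± 0.601 FPKM in YAP colonies against 47.8 ± 3.403 FPKM in control iPSCs, and Suz12 and Mtf2 of the methylating complex 39.3 ± 2.08 and 21.9 ± 0.983 FPKM in YAP colonies, against 113 ± 12.4 and 89.3 ± 3.75 FPKM in control iPSCs. Bmi1 moved the other way, at 21.6, 25.01 and 23.9 FPKM in the YAP colonies and 1.76, 1.97 and 1.76 FPKM in the control iPSCs.

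Signalling through leukaemia inhibitory factor (LIF), which holds mouse stem cells in the naive state, changed in its parts and not as a block. Of 19 tested genes 4 rose and 7 fell (median 0.16). The receptor gene Lifr fell to 2.201, 1.87 and 1.33 FPKM in the YAP colonies, against 7.11, 8.08 and 6.22 FPKM in the control iPSCs. Stat3 itself rose, at 37.7 ± 1.58 FPKM in YAP colonies against 13.5 ± 1.17 FPKM in control iPSCs, while Socs3, Pim1, Pim3 and Bcl3, which STAT3 switches on, fell. Socs3 was at 14.8, 14.4 and 12.2 FPKM in the YAP colonies, against 49.7, 38.9 and 39.8 FPKM in the control iPSCs. Germline genes that stem cells express at low levels fell in 18 of 20 cases, among them Dazl at 0.00722 ± 0.0125 FPKM in YAP colonies against 9.88 ± 1.900 FPKM in control iPSCs and Stag3 at 0.851 ± 0.182 FPKM in YAP colonies against 16.6 ± 2.36 FPKM in control iPSCs, and the other 2 were not called. The 30 listed germline genes summed to 18.4 FPKM in YAP colonies against 259 FPKM in control iPSCs. The filter was thus passed mainly through the control iPSCs, so the count of falls was largely set by the filter.

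Genes of the Hippo pathway rose in 11 of 28 cases and none fell, with a median of 0.93. Kinases and scaffolds that hold YAP back were among them. Lats1 and Sav1 averaged 12.9 ± 0.982 and 25.9 ± 0.655 FPKM in YAP colonies, against 3.803 ± 0.626 and 10.4 ± 0.681 FPKM in control iPSCs. Vgll3 and Vgll4 encode proteins that bind TEAD in place of YAP. Vgll3 was at 11.7, 12.3 and 9.73 FPKM in the YAP colonies, against 0.775, 0.748 and 0.737 FPKM in the control iPSCs, and Vgll4 at 47.7, 28.5 and 27.1 FPKM in the YAP colonies, against 3.65, 2.63 and 3.15 FPKM in the control iPSCs. Wwtr1, the gene of the YAP paralog TAZ, was at 25.3, 27.3 and 28.2 FPKM in the YAP colonies, against 5.54, 5.602 and 4.97 FPKM in the control iPSCs. Tead1 to Tead4, Nf2, Stk3 and Stk4 were not called, nor was Yap1 (0.51, SE 0.086). The listed YAP/TAZ targets rose in 11 of 17 cases and fell in 1. Amotl2, Lats2 and Ptpn14 stand in both this list and the Hippo list, so these counts are not separate. Lats2 is among the genes with listed values of exactly 0 described below. Crim1, a membrane protein that binds BMPs, averaged 9.09 ± 0.458 FPKM in YAP colonies against 0.669 ± 0.0129 FPKM in control iPSCs and Myof, a membrane repair gene, 5.67 ± 2.45 FPKM in YAP colonies against 0.823 ± 0.175 FPKM in control iPSCs. Ctgf, the target most often measured, was at 30.98, 29.9 and 19.5 FPKM in the YAP colonies, against 25.4, 21.8 and 23.3 FPKM in the control iPSCs, and its groups overlapped. Tgfb2, Ptpn14 and Nuak2 among the rising targets lie on chromosome 1.

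AP-1 genes rose in 7 of 11 tested cases, and none fell (median 1.24). Fos was at 141, 135 and 137 FPKM in the YAP colonies, against 37.3, 30.6 and 30.02 FPKM in the control iPSCs. Fosb was at 62.5, 44.1 and 46.9 FPKM in the YAP colonies, against 6.41, 5.02 and 6.399 FPKM in the control iPSCs, and Jun at 38.3, 39.6 and 40.4 FPKM in the YAP colonies, against 5.001, 3.48 and 4.596 FPKM in the control iPSCs. Every YAP colony library lay above every control library for the 3 genes. Fosl1 was below the filter.

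TEAD factors bind GGAATG, which reads CATTCC on the other strand. AP-1 binds TGACTCA, which reads TGAGTCA on the other strand. RefSeq start regions (GRCm38.p6, 250 bases before to 50 after a gene's start) are shown for 3 genes that rose and 1 that fell and hold the TEAD letters, and for 2 that rose and hold the AP-1 letters, with the motif in capitals. They are read along the gene's strand.
Axl, receptor kinase, chr7:25788684-25788983, minus strand: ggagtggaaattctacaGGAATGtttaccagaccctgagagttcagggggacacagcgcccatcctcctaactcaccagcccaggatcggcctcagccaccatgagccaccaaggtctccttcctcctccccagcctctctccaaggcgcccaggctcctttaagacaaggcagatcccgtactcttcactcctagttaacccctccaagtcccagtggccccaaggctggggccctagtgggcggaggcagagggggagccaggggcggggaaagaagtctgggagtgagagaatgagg
Wwtr1, YAP paralog TAZ, chr3:57575861-57576160, minus strand: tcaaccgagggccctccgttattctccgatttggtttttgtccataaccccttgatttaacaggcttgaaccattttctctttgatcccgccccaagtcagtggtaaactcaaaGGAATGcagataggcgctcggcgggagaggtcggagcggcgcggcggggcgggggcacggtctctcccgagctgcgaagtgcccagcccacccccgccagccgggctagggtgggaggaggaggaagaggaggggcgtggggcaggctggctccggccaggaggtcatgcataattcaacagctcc
Acta2, smooth muscle actin, chr19:34255324-34255623, minus strand: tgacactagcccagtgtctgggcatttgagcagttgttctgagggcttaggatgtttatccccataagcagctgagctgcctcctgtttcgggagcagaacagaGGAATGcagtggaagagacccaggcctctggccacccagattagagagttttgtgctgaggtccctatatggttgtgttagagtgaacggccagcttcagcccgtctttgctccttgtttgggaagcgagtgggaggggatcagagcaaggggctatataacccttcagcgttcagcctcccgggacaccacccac
Zfp42, naive pluripotency marker, chr8:43306960-43307259, minus strand: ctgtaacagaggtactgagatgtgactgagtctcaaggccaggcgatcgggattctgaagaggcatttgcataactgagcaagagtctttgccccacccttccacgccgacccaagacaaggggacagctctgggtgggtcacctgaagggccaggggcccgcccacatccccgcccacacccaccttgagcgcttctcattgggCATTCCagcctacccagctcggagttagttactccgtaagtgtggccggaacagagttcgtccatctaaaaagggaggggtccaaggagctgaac
Emp1, membrane protein, chr6:135362681-135362980, plus strand: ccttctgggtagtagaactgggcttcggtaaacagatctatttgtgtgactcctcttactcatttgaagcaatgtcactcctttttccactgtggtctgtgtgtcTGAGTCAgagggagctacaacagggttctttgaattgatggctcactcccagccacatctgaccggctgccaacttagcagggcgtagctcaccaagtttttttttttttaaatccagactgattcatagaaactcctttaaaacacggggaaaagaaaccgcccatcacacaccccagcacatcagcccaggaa
Anxa2, annexin, chr9:69453433-69453732, plus strand: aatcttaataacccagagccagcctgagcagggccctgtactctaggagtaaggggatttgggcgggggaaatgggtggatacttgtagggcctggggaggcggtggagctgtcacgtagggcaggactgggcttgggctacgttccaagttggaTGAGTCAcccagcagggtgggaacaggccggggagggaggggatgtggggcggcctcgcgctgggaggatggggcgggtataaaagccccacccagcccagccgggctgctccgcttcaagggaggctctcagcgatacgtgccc

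Such letters are common. On either strand, the TEAD letters stood in 14.4% of the 1508 matched start regions of genes that rose, in 13.96% of 1454 of genes that fell, and in 11.8% of all 9035 matched tested genes. The AP-1 letters stood in 3.71%, 4.20% and 3.13%. Over all 32851 regions of the table the shares were 14.7% and 5.20%. A match in a window is a description and says nothing of binding. Beside these sequences stand the expression values. Axl was at 35.8, 26.7 and 25.9 FPKM in the YAP colonies, against 0.994, 0.827 and 0.827 FPKM in the control iPSCs (log2 fold change 4.001, SE 0.14, limma adjusted p = 7.85e-07). Emp1, whose rise headed the named genes (log2 fold change 7.84, SE 0.20, limma adjusted p = 2.92e-07), was at 371, 513 and 512 FPKM in the YAP colonies, against 0.677, 1.62 and 0.845 FPKM in the control iPSCs.

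Tight and gap junction genes, which seal and couple epithelial cells, mostly fell. Of 21 tight and gap junction genes 13 fell and 4 rose. The claudin gene Cldn4 was at 0.241, 0.1097 and 0.0783 FPKM in the YAP colonies, against 112, 74.9 and 94.3 FPKM in the control iPSCs (log2 fold change -6.36, SE 0.15, limma adjusted p = 2.12e-07). Cldn6 and Cldn7 averaged 0.0491 ± 0.0495 and 0.339 ± 0.479 FPKM in YAP colonies, against 35.01 ± 4.74 and 26.8 ± 9.69 FPKM in control iPSCs. Gja1, the widely expressed connexin gene, was not called at 56.1 ± 9.84 FPKM in YAP colonies against 44.4 ± 3.64 FPKM in control iPSCs, nor was the scaffold gene Tjp1. Jam3, a junctional adhesion molecule, was among those that rose, at 25.1 ± 1.87 FPKM in YAP colonies against 3.11 ± 0.5303 FPKM in control iPSCs.

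Among 22 cadherin and desmosome genes 8 rose and 6 fell. E-cadherin (Cdh1) was at 18.8, 12.5 and 13.1 FPKM in the YAP colonies, against 74.1, 68.9 and 66.5 FPKM in the control iPSCs, and N-cadherin (Cdh2) at 12.1, 12.8 and 12.03 FPKM in the YAP colonies, against 0.384, 0.382 and 0.336 FPKM in the control iPSCs. Cdh13, a cadherin with no cytoplasmic tail, was at 42.4, 24.1 and 30.1 FPKM in the YAP colonies, against 0.164, 0.08499 and 0.148 FPKM in the control iPSCs. Pkp1, a desmosomal plakophilin of chromosome 1, rose to 19.6, 22 and 25.9 FPKM in the YAP colonies, against 0.0336, 0.125 and 0.0368 FPKM in the control iPSCs. Dsc2 and Dsp of the desmosome also rose, and Dsg2 fell. Lower Cdh1, higher Cdh2 and higher desmosomal genes were thus measured in the same 3 libraries. Beta-catenin (Ctnnb1) was not called, at 301 ± 22.9 FPKM in YAP colonies against 189 ± 11.6 FPKM in control iPSCs.

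Most regulators known for switching cadherins were near 0. Snai1, Snai2, Twist1, Twist2 and Prrx1 were below 1 FPKM on average in each group. Zeb2 was at 6.82, 5.33 and 6.05 FPKM in the YAP colonies, against 0.0433, 0.1400 and 0 FPKM in the control iPSCs, and Zeb1 rose as well, at 8.36 ± 0.232 FPKM in YAP colonies against 2.19 ± 0.254 FPKM in control iPSCs. On the epithelial side Esrp1, a splicing factor, was listed at 0 in all 3 YAP colony libraries and at 16.02, 13.1 and 15.1 FPKM in the control iPSCs, and Grhl2 averaged 0.0333 ± 0.0316 FPKM in YAP colonies against 4.51 ± 0.547 FPKM in control iPSCs. Krt7, Krt8, Krt17, Krt18, Krt19 and Krt42 fell and Krt10 was not called, with Krt18 at 0.0538, 0.196 and 0 FPKM in the YAP colonies, against 27.04, 13.1 and 17.7 FPKM in the control iPSCs. Krt42, a keratin gene of mouse, was listed at 0 in the YAP colonies and at 50.4, 31 and 40.8 FPKM in the control iPSCs. The mesenchymal filament gene Vim was at 691, 1009.7 and 914 FPKM in the YAP colonies, against 112, 119.5 and 91.96 FPKM in the control iPSCs, and Lmna, the lamin of stiff nuclei, rose to 21.3 ± 10.5 FPKM in YAP colonies against 6.38 ± 1.29 FPKM in control iPSCs. Without YAP colony replicate 2, YAP colony replicate 3 or control replicate 2, Lmna was no longer called, at 1.20, 1.24 and 1.31.

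Annexins and S100 proteins, calcium-dependent partners at the inner membrane, had the second highest median of all lists. Of 19 tested genes 13 rose and 4 fell, with a median of 2.43. S100a6 was at 577, 1127 and 738 FPKM in the YAP colonies, against 53.8, 51.6 and 54.6 FPKM in the control iPSCs (log2 fold change 3.85, SE 0.23, limma adjusted p = 9.54e-06). Its neighbour S100a16 on chromosome 3 was at 65.5, 86.7 and 78.99 FPKM in the YAP colonies, against 2.33, 2.56 and 2.496 FPKM in the control iPSCs. S100a10 and its partner Anxa2 averaged 397 ± 66.3 and 275 ± 61.7 FPKM in YAP colonies, against 72.7 ± 9.34 and 13.1 ± 2.41 FPKM in control iPSCs, and Anxa5 212 ± 49.4 FPKM in YAP colonies against 6.34 ± 0.793 FPKM in control iPSCs. Anxa1, which restrains inflammation, was at 72.6, 109 and 80.03 FPKM in the YAP colonies, against 1.47, 1.31 and 1.07 FPKM in the control iPSCs. S100a13 and S100a1, from the same gene cluster as S100a6, ran the other way, and S100a13 was at 2.82, 2.23 and 3.13 FPKM in the YAP colonies, against 104, 90.98 and 97.9 FPKM in the control iPSCs. Genes of one cluster thus moved in both directions.

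Caveolae, the flask-shaped pits of the cell membrane, also rose, in that 6 of 8 tested genes rose and 0 fell. Cav1 was low, at 3.14, 4.75 and 3.197 FPKM in the YAP colonies, against 0.289, 0.174 and 0.0706 FPKM in the control iPSCs, and Ptrf, the coat protein cavin-1, was high, at 52.9, 89.3 and 82.9 FPKM in the YAP colonies, against 3.09, 3.07 and 2.85 FPKM in the control iPSCs. Among integrins 5 of 13 rose and 6 fell. The beta subunit gene Itgb1 averaged 101 ± 7.09 FPKM in YAP colonies against 35.4 ± 2.81 FPKM in control iPSCs, and Itgav and Itgb5 of the vitronectin receptor 15.9 ± 2.01 and 32.1 ± 2.87 FPKM in YAP colonies, against 5.31 ± 0.136 and 10.9 ± 1.78 FPKM in control iPSCs. Itga6, a laminin receptor subunit of stem cells, fell to 17.1 ± 2.07 FPKM in YAP colonies against 50.8 ± 3.37 FPKM in control iPSCs, and Itga3 to 2.08 ± 0.409 FPKM in YAP colonies against 18.7 ± 3.59 FPKM in control iPSCs. Itgb4, the partner of Itga6, rose to 10.7, 32.8 and 25.4 FPKM in the YAP colonies, against 2.35, 1.61 and 1.76 FPKM in the control iPSCs.

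Actin and focal adhesion genes were mixed, with 12 of 50 higher and 8 lower. Smooth muscle actin (Acta2) was at 92.3, 78.4 and 64.1 FPKM in the YAP colonies, against 0.478, 0.127 and 0.275 FPKM in the control iPSCs. Tagln, another smooth muscle gene, had no value above 0 in the control iPSCs, and Actg2 averaged 8.65 ± 1.27 FPKM in YAP colonies against 0.0687 ± 0.0595 FPKM in control iPSCs. Tpm1 and Tpm4, tropomyosins of stress fibres, averaged 249.9 ± 12.3 and 102 ± 10.6 FPKM in YAP colonies, against 75.6 ± 5.87 and 21.9 ± 0.848 FPKM in control iPSCs, Cald1 94 ± 8.12 FPKM in YAP colonies against 11.8 ± 2.001 FPKM in control iPSCs and Parva, an adaptor of integrin-linked kinase, 33.2 ± 4.32 FPKM in YAP colonies against 3.79 ± 0.459 FPKM in control iPSCs. Its paralog Parvb fell to 1.702 ± 1.25 FPKM in YAP colonies against 33.2 ± 3.21 FPKM in control iPSCs, and Actn1 to 16.1 ± 1.59 FPKM in YAP colonies against 53.01 ± 2.86 FPKM in control iPSCs. Of the defining smooth muscle markers, Myh11, Cnn1 and Lmod1 stayed below 0.5 FPKM on average in each group, and Des fell.

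Matrix genes rose more often than they fell. In the matricellular and interstitial list 20 of 32 rose and 5 fell, in the collagen list 13 of 21 and 4, and in the basement membrane list 7 of 16 and 3. Members near 0 in the control iPSCs, such as Cd44, Efemp1, Col15a1 and Col5a2, passed the filter only through the YAP colonies. Such members could only rise, which favours rises in these counts. Cd44, the hyaluronan receptor gene, was at 55.2, 67.5 and 61.5 FPKM in the YAP colonies, against 0.463, 0.248 and 0.178 FPKM in the control iPSCs (log2 fold change 5.59, SE 0.12, limma adjusted p = 1.51e-07). Fbln2 and Efemp1, fibulins of elastic fibres, averaged 85.2 ± 21.7 and 56.9 ± 11.01 FPKM in YAP colonies, against 2.72 ± 0.234 and 0.397 ± 0.122 FPKM in control iPSCs. Tnc, the tenascin of wounds and tumours, was at 9.67, 7.89 and 5.51 FPKM in the YAP colonies, against 0.251, 0.273 and 0.273 FPKM in the control iPSCs. The fibrillar collagens I and III, the main collagens of fibroblasts, were low in both groups. Col1a1 averaged 2.600 ± 0.704 FPKM in YAP colonies against 0.185 ± 0.0313 FPKM in control iPSCs, Col1a2 2.13 ± 0.3104 FPKM in YAP colonies against 0.244 ± 0.0468 FPKM in control iPSCs and Col3a1, on chromosome 1, 2.95 ± 1.45 FPKM in YAP colonies against 0.285 ± 0.165 FPKM in control iPSCs, while Pdgfra, Lum and Postn stayed below 1.5 FPKM on average. By contrast Col4a1, of basement membranes, was at 72.8, 97.8 and 99.4 FPKM in the YAP colonies, against 5.05, 3.898 and 3.69 FPKM in the control iPSCs, and Col15a1 at 33.7, 29.1 and 27.7 FPKM in the YAP colonies, against 0.401, 0.164 and 0.313 FPKM in the control iPSCs. Col5a2 on chromosome 1 averaged 30.8 ± 9.66 FPKM in YAP colonies against 0.168 ± 0.0519 FPKM in control iPSCs. These low values are of RNA from whole colonies on feeder cells, in which fewer cells of a type and less RNA per cell cannot be told apart.

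Laminin chains also shifted. Lama4 was at 16.1, 19.3 and 17.8 FPKM in the YAP colonies, against 0.155, 0.122 and 0.312 FPKM in the control iPSCs. Lama1, Lamb1 and Lamc1, which form the laminin of the early embryo, averaged 43.6 ± 7.74, 105 ± 2.49 and 112 ± 4.97 FPKM in YAP colonies, against 9.204 ± 1.24, 20.7 ± 3.14 and 38.2 ± 2.88 FPKM in control iPSCs, Lamc1 being on chromosome 1. Nid2, which links laminin to collagen IV, fell to 13.2 ± 2.37 FPKM in YAP colonies against 86.1 ± 6.69 FPKM in control iPSCs, and Col18a1 to 17.2 ± 2.96 FPKM in YAP colonies against 59.03 ± 12.6 FPKM in control iPSCs. Osteopontin (Spp1) was at 41.8, 43.7 and 46.03 FPKM in the YAP colonies, against 538, 634 and 477 FPKM in the control iPSCs, and fibronectin (Fn1), a gene of chromosome 1, at 30.4, 25.4 and 26.8 FPKM in the YAP colonies, against 151, 214 and 179 FPKM in the control iPSCs. Among inhibitors of matrix proteases Timp1, Timp2 and Timp3 rose, with Timp3 at 18.8 ± 5.83 FPKM in YAP colonies against 1.400 ± 0.134 FPKM in control iPSCs, and Serpine2, of chromosome 1, averaged 183 ± 25.5 FPKM in YAP colonies against 6.22 ± 0.238 FPKM in control iPSCs. All listed metalloproteinase genes but Mmp11 averaged below 5 FPKM in both groups.

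Signals of the TGF-beta superfamily moved both ways in a list that held 18 genes that rose and 10 that fell among 43. Genes of the Nodal branch fell. Nodal itself was at 0.0343, 0.0625 and 0.0334 FPKM in the YAP colonies, against 13.5, 13.2 and 11.1 FPKM in the control iPSCs, and its feedback inhibitors Lefty1 and Lefty2 and the ligand Gdf3 fell too. Bmp4 was at 0.813, 0.411 and 0.656 FPKM in the YAP colonies, against 22.4, 17.2 and 17.9 FPKM in the control iPSCs. In the TGF-beta branch Tgfb2 rose, at 17.9, 10.6 and 11.6 FPKM in the YAP colonies, against 0.0484, 0.356 and 0.0939 FPKM in the control iPSCs, and Tgfb1 was not called. Tgfb3, Tgfbr1 and Tgfbr2 averaged 5.01 ± 0.652, 13.2 ± 1.02 and 3.95 ± 0.541 FPKM in YAP colonies, against 0.134 ± 0.0955, 3.55 ± 0.597 and 0.434 ± 0.1304 FPKM in control iPSCs, and Smad3 19.4 ± 1.205 FPKM in YAP colonies against 4.69 ± 0.558 FPKM in control iPSCs. Smad7, an inhibitor that this branch induces, fell to 3.01 ± 0.326 FPKM in YAP colonies against 27.3 ± 9.18 FPKM in control iPSCs. Fst, which traps activin, was at 20.5, 15.4 and 18.1 FPKM in the YAP colonies, against 0.155, 0.213 and 0.2298 FPKM in the control iPSCs, and Fstl1 averaged 266 ± 4.48 FPKM in YAP colonies against 5.54 ± 1.48 FPKM in control iPSCs.

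In the WNT list 8 of 30 rose and 6 fell. The TCF factor genes switched, with Lef1 at 10.5, 7.92 and 7.998 FPKM in the YAP colonies, against 0.0705, 0.1204 and 0.139 FPKM in the control iPSCs, and Tcf7 at 1.58, 1.201 and 1.27 FPKM in the YAP colonies, against 28.4, 24.95 and 25.8 FPKM in the control iPSCs. Wnt5a, a non-canonical ligand, averaged 4.19 ± 2.57 FPKM in YAP colonies against 0.0565 ± 0.0262 FPKM in control iPSCs, and Fzd3, a frizzled receptor gene, 9.04 ± 0.8303 FPKM in YAP colonies against 0.3998 ± 0.0836 FPKM in control iPSCs. Axin2, the feedback gene of canonical signalling, fell to 0.255 ± 0.212 FPKM in YAP colonies against 2.06 ± 0.195 FPKM in control iPSCs. Among FGF genes 7 of 28 rose and 6 fell. Fgf4, the ligand of stem cells, averaged 5.27 ± 1.77 FPKM in YAP colonies against 59.04 ± 3.596 FPKM in control iPSCs, and the receptor gene Fgfr1 79.4 ± 12.6 FPKM in YAP colonies against 21.3 ± 3.23 FPKM in control iPSCs. Of the feedback genes Dusp9, X-linked, fell to 0.993 ± 0.167 FPKM in YAP colonies against 55.6 ± 8.99 FPKM in control iPSCs, while Dusp6 and Etv5 were not called. Egr1, the immediate early gene, averaged 108 ± 17.1 FPKM in YAP colonies against 10.7 ± 1.83 FPKM in control iPSCs.

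Notch and Hedgehog genes rose more often than they fell, with 9 of 22 against 2 and 5 of 11 against 2 (1 Hedgehog gene without YAP colony replicate 1). The Notch receptor gene Notch2 averaged 11.7 ± 1.71 FPKM in YAP colonies against 2.45 ± 0.368 FPKM in control iPSCs, its ligand Jag1 16.9 ± 2.47 FPKM in YAP colonies against 2.28 ± 0.103 FPKM in control iPSCs and the co-activator Maml3 6.297 ± 1.16 FPKM in YAP colonies against 0.07203 ± 0.0118 FPKM in control iPSCs. Rbpj, which brings Notch to DNA, fell to 15.5, 14.6 and 15.2 FPKM in the YAP colonies, against 60.7, 63.3 and 53.7 FPKM in the control iPSCs. The direct target Hes1 was not called, and Hes6 and Nrarp rose. In the Hedgehog list the transducer Smo averaged 27.2 ± 3.62 FPKM in YAP colonies against 5.03 ± 0.777 FPKM in control iPSCs and the repressor Gli3 7.67 ± 0.734 FPKM in YAP colonies against 0.821 ± 0.0911 FPKM in control iPSCs. Gli1, whose level follows the activity of the pathway in mouse embryos, was at 0.226, 0.1202 and 0.0734 FPKM in the YAP colonies, against 8.21, 5.34 and 5.005 FPKM in the control iPSCs.

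Among receptor kinases and growth factors, 9 of 25 rose and 7 fell, and a ligand and its receptor rose together. Gas6 encodes the ligand of the TAM receptors Axl, Tyro3 and Mertk. It was at 97.2, 117 and 124 FPKM in the YAP colonies, against 5.005, 5.01 and 3.77 FPKM in the control iPSCs (log2 fold change 4.35, SE 0.14, limma adjusted p = 6.14e-07). A second TAM ligand, Pros1, averaged 70.6 ± 18.5 FPKM in YAP colonies against 10.2 ± 1.44 FPKM in control iPSCs. Tyro3 was not called and Mertk was below the filter. Ddr2, a collagen receptor of chromosome 1, was at 21.3, 33.7 and 28.3 FPKM in the YAP colonies, against 0.155, 0.168 and 0.152 FPKM in the control iPSCs. Insr and Igf1r rose, at 8.51 ± 1.13 and 19.6 ± 1.62 FPKM in YAP colonies, against 1.86 ± 0.213 and 3.21 ± 0.426 FPKM in control iPSCs, whereas Erbb3 and Kit fell, at 2.16 ± 0.482 and 11.7 ± 3.53 FPKM in YAP colonies, against 16.2 ± 3.51 and 36.6 ± 0.869 FPKM in control iPSCs. Igfbp2, a binding protein gene on chromosome 1, fell to 64.4, 36.1 and 32.5 FPKM in the YAP colonies, against 488, 355 and 402 FPKM in the control iPSCs. Vegfa, the angiogenic factor, averaged 1.98 ± 0.436 FPKM in YAP colonies against 24.6 ± 3.86 FPKM in control iPSCs.

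Hox genes, which encode position along the body axis and are silent in naive stem cells, were among the genes that rose. Of 39 listed genes 25 were tested, of which 24 rose and none fell, and the remaining gene was Hoxb13. In the control iPSCs 1 gene of the Hoxb cluster, and none of the other clusters, reached 1 FPKM in every library. Nearly all tested Hox genes thus passed the filter only through the YAP colonies, so the count was largely set by the filter. Summed over the cluster, Hoxa genes had 70.3, 71.2 and 77.1 FPKM in the YAP colonies, against 1.46, 1.32 and 1.20 FPKM in the control iPSCs. Hoxc genes had 62.7, 73.0 and 78.8 FPKM, against 1.06, 1.64 and 1.58. Hoxb genes had 17.5, 21.1 and 19.3 FPKM, against 2.64, 3.13 and 2.91, and Hoxd genes 21.5, 18.5 and 19.9 FPKM, against 0.735, 1.74 and 0.539. No library of the control iPSCs reached the lowest colony library in any cluster. Within the clusters the level was uneven. Hoxa10 was at 25.4, 19.6 and 21.4 FPKM in the YAP colonies, against 0, 0.0667 and 0.0635 FPKM in the control iPSCs (log2 fold change 4.46, SE 0.12, limma adjusted p = 2.89e-07). Hoxc10 was at 12.3, 18.3 and 17.7 FPKM in the YAP colonies, against 0.0277, 0.0295 and 0.0637 FPKM in the control iPSCs, whereas Hoxa11 averaged 0.0104 ± 0.01801 FPKM in YAP colonies against 0.00887 ± 0.0154 FPKM in control iPSCs and Hoxb1 and Hoxb2 were listed at 0 in the YAP colonies. Meis1 and Meis2, partners of Hox proteins on DNA, rose as well, with Meis2 at 20.3, 17.5 and 26.8 FPKM in the YAP colonies, against 0.673, 0.481 and 0.478 FPKM in the control iPSCs.

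**Figure D4:**
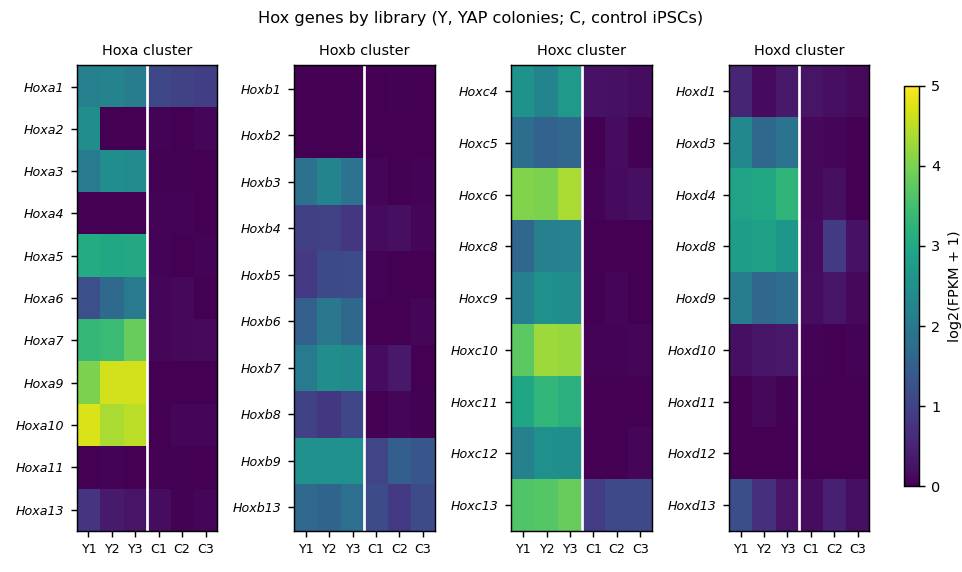
Levels of the Hox genes by library as log2(FPKM + 1), with 1 panel per cluster and genes in numbered order. YAP colony libraries are the left 3 columns of each panel and control iPSC libraries the right 3, and the highest values are Hoxa9, Hoxa10, Hoxc6 and Hoxc10 in YAP colonies.

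Neural and axon guidance genes were among those that rose, without a complete neural set. In the neural lineage list 13 of 18 rose and 3 fell, with a median of 2.53. Gpm6b, a myelin proteolipid relative, was at 219, 128 and 181 FPKM in the YAP colonies, against 0.194, 0.211 and 0.185 FPKM in the control iPSCs. Pax6 averaged 10.96 ± 4.44 FPKM in YAP colonies against 0.248 ± 0.0675 FPKM in control iPSCs, and Sox11 28.3 ± 1.45 FPKM in YAP colonies against 2.904 ± 0.176 FPKM in control iPSCs. Sox1, Dcx, Gap43, Neurog2 and Fabp7 were below 1.5 FPKM on average. Stmn2, a neuronal stathmin, fell, at 10.9, 11.5 and 3.55 FPKM in the YAP colonies, against 114, 129 and 105 FPKM in the control iPSCs. Map2 lies on chromosome 1. Of 40 axon guidance genes 18 rose and 6 fell. Efnb1, an X-linked ephrin, was at 44.6, 40.9 and 34.3 FPKM in the YAP colonies, against 1.52, 1.32 and 2.02 FPKM in the control iPSCs, and netrin-1 (Ntn1) and netrin-4 (Ntn4) averaged 16.6 ± 2.31 and 10.6 ± 0.563 FPKM in YAP colonies, against 1.17 ± 0.367 and 0.153 ± 0.0965 FPKM in control iPSCs.

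Markers of other cell types gave no complete set. Of the 11 fibroblast markers 5 were tested and all 5 rose, led by Vim, with Thy1 at 22.9 ± 5.82 FPKM in YAP colonies against 3.88 ± 0.914 FPKM in control iPSCs and the 3 collagens at the low levels above. The 3 collagens passed the filter only through the YAP colonies, so they could only rise. With a pseudocount of 5 Col1a1 (0.55), Col1a2 (0.44) and Col3a1 (0.57) were not called. None of the 5 primitive endoderm markers passed the filter, and Foxa2, Sox17 and Sox7 were listed at 0 in the YAP colonies. The neural crest markers Sox10 and Pax3 were below 0.2 FPKM in each group. Of the 4 tested markers of that list 3 rose, namely Ets1, Ngfr and Tfap2a, the last at 12.4 ± 0.4801 FPKM in YAP colonies against 0.306 ± 0.0218 FPKM in control iPSCs, and Foxd3 fell, at 0.0102 ± 0.0177 FPKM in YAP colonies against 2.32 ± 0.196 FPKM in control iPSCs. Without YAP colony replicate 2 or 3 or control replicate 1 or 3, Ngfr was not called, at 0.99 to 1.19. Keratinocyte markers Krt5, Krt14 and Trp63 were below 1 FPKM, while Perp rose and Sfn fell. The endothelial markers Cdh5 and Kdr were below 0.1 FPKM. Of the 4 tested endothelial markers Eng, Pecam1 and Vwf fell, with Pecam1 at 0.173 ± 0.0207 FPKM in YAP colonies against 33.9 ± 3.86 FPKM in control iPSCs, and Tek rose, at 44.1, 41.6 and 41.7 FPKM in the YAP colonies, against 3.27, 2.51 and 2.61 FPKM in the control iPSCs. Eng is among the genes with listed values of exactly 0 described below. Leukocyte markers Ptprc and Csf1r were at or near 0. Of the 3 tested leukocyte markers Laptm5 rose, at 124 ± 10.6 FPKM in YAP colonies against 16.8 ± 3.53 FPKM in control iPSCs, Cd68 fell, at 2.805 ± 0.5896 FPKM in YAP colonies against 13.97 ± 3.28 FPKM in control iPSCs, and Lyz2 was not called. All 3 tested trophoblast markers fell. The 6 listed trophoblast markers summed to 3.55 FPKM in YAP colonies against 58.8 FPKM in control iPSCs. The filter was thus passed mainly through the control iPSCs, which favours falls. Cdx2, Elf5 and Gata3 were below the filter. The part of these cell types or of feeder cells in the results was not tested.

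Imprinted genes rose in 12 of 28 cases and fell in 5. On chromosome 12 Dlk1, a paternally expressed Notch-like gene, was at 79.4, 128 and 122 FPKM in the YAP colonies, against 0.258, 0.234 and 0.157 FPKM in the control iPSCs. Its maternally expressed neighbours Meg3, Rian and Mirg also rose, with Meg3 at 74.9, 57.99 and 55.3 FPKM in the YAP colonies, against 8.22, 1.197 and 3.76 FPKM in the control iPSCs. Low Meg3 and Rian are known from iPSC lines in which this locus is silenced, and both were lower in the control iPSCs than in the YAP colonies. Whether the locus was silenced in these control iPSCs was not tested. Grb10, Nnat, Plagl1, Gnas and Peg3 rose from other loci, with Plagl1 at 62.8 ± 2.87 FPKM in YAP colonies against 4.63 ± 0.756 FPKM in control iPSCs. Igf2 fell to 4.25 ± 2.99 FPKM in YAP colonies against 21.4 ± 9.08 FPKM in control iPSCs while H19 beside it was not called, at 69.9 ± 45.8 FPKM in YAP colonies against 96.7 ± 34.4 FPKM in control iPSCs. Of 17 retinoid genes 6 rose, 2 fell and 9 were not called. Aldh1a1, which makes retinoic acid, was at 153, 80.8 and 105 FPKM in the YAP colonies, against 0.0766, 0.191 and 0.0294 FPKM in the control iPSCs. The nuclear receptor genes Nr2f2 and Rxra also rose, at 7.36 ± 1.200 and 14.01 ± 3.18 FPKM in YAP colonies, against 0.0517 ± 0.0284 and 4.54 ± 0.917 FPKM in control iPSCs. The degrading enzymes Cyp26a1 and Cyp26b1 were near 0, and the 2 genes that fell were Crabp1 and Stra8.

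Genes that govern entry into the cell cycle changed in both senses. Of 29 genes of G1, cyclins, kinases and their inhibitors, 11 rose and 3 fell. Ccnd2 was at 218, 221 and 240.0 FPKM in the YAP colonies, against 0.318, 0.399 and 0.251 FPKM in the control iPSCs, and Ccnd1 at 102, 121 and 132 FPKM in the YAP colonies, against 9.74, 11.5 and 9.04 FPKM in the control iPSCs. The third D-type cyclin gene, Ccnd3, ran the other way, at 31.1, 29.6 and 36.99 FPKM in the YAP colonies, against 111, 85.4 and 95.8 FPKM in the control iPSCs. Inhibitors of the cyclin kinases rose too. Cdkn1a was at 152, 187 and 183 FPKM in the YAP colonies, against 13.2, 13.3 and 12.1 FPKM in the control iPSCs, and Cdkn2a, whose locus encodes p16 and p19ARF, at 33.2, 46.8 and 52.3 FPKM in the YAP colonies, against 4.46, 2.99 and 3.07 FPKM in the control iPSCs. Cdkn1b, Cdkn1c and Rb1 were also called higher. In the replication and mitosis list 12 of 39 fell and 1 rose (0 without YAP colony replicate 2 or control replicate 3), with Mcm5 at 49.6 ± 10.4 FPKM in YAP colonies against 114 ± 4.76 FPKM in control iPSCs and Cdc6 at 8.96 ± 1.49 FPKM in YAP colonies against 28 ± 2.79 FPKM in control iPSCs. Mki67, Pcna, Ccna2 and Top2a were not called, and Mki67 was at 41.2, 52.6 and 50.6 FPKM in the YAP colonies, against 40.7, 40.9 and 35.3 FPKM in the control iPSCs.

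Myc stood at 336, 413 and 454 FPKM in the YAP colonies, against 5.96, 5.14 and 5.27 FPKM in the control iPSCs (log2 fold change 5.95, SE 0.13, limma adjusted p = 1.52e-07). Mycn, the paralog of stem cells, averaged 3.99 ± 0.452 FPKM in YAP colonies against 18.8 ± 2.97 FPKM in control iPSCs, and Mxd4, an antagonist of Myc, 22.3 ± 1.99 FPKM in YAP colonies against 0.375 ± 0.0471 FPKM in control iPSCs. Genes of the nucleolus and other common Myc targets moved little. Of these 0 of 36 rose, 4 fell (2 without YAP colony replicate 1 or control replicate 2) and the median was -0.33. Ncl, Npm1 and Odc1 were not called, with Ncl at 704 ± 115 FPKM in YAP colonies against 567 ± 42.3 FPKM in control iPSCs and Odc1 at 53.6 ± 12.9 FPKM in YAP colonies against 86.7 ± 3.25 FPKM in control iPSCs. Among p53 and cell death genes 7 of 36 rose and 3 fell, so that 27.8% were called, below the 31.7% of all tested rows. Fas, the death receptor gene, was at 17.9, 19.4 and 18.9 FPKM in the YAP colonies, against 0.183, 0.195 and 0.294 FPKM in the control iPSCs, and Bcl2, of chromosome 1, at 13.7, 14.6 and 15.1 FPKM in the YAP colonies, against 0.0545, 0.0437 and 0.05903 FPKM in the control iPSCs. Trp53, Mdm2, Bax and Bbc3 were not called.

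Glycolysis and hypoxia genes fell in 17 of 43 cases and rose in 3 (1 without YAP colony replicate 1), with a median of -0.81. Aldoa was at 210.4, 248 and 286 FPKM in the YAP colonies, against 1331, 1105 and 989 FPKM in the control iPSCs, and the lactate exporter gene Slc16a3 at 1.24, 2.02 and 2.52 FPKM in the YAP colonies, against 30.4, 24.3 and 23.1 FPKM in the control iPSCs. Eno1, Pgk1 and Ldhb averaged 82.4 ± 15.9, 53.3 ± 4.09 and 139.5 ± 20.1 FPKM in YAP colonies, against 277 ± 34.7, 125 ± 16.5 and 411 ± 50.7 FPKM in control iPSCs, and Slc2a1, the glucose carrier, 31.3 ± 8.76 FPKM in YAP colonies against 134 ± 19.2 FPKM in control iPSCs. Eno1 lies at the end of chromosome 4, where many neighbouring genes fell, as given below. The second glucose carrier Slc2a3 and Gapdh were not called. Pfkp was listed at 0 in all 3 YAP colony libraries, and its paralog Pfkl fell to 15.6 ± 3.68 FPKM in YAP colonies against 84.99 ± 9.47 FPKM in control iPSCs. Of 67 nuclear genes of the respiratory chain 59 were not called, 1 rose (2 without control replicate 1) and 7 fell. The largest fall with values above 0 in each library was Cox7a1, the heart isoform of a cytochrome oxidase subunit, at 1.53, 3.04 and 2.43 FPKM in the YAP colonies, against 63.9, 46.4 and 48.3 FPKM in the control iPSCs.

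In the list of threonine, serine and one-carbon enzymes 7 of 25 fell, 3 rose and 15 were not called. Tdh, threonine dehydrogenase, on which mouse stem cells depend, was at 2.701, 3.56 and 2.56 FPKM in the YAP colonies, against 136, 138 and 124 FPKM in the control iPSCs (log2 fold change -5.09, SE 0.12, limma adjusted p = 1.78e-07). The glycine cleavage genes Gldc, Amt and Gcsh averaged 19.4 ± 2.78, 3.36 ± 2.05 and 41.3 ± 5.14 FPKM in YAP colonies, against 86.9 ± 10.8, 41.8 ± 2.37 and 109 ± 5.54 FPKM in control iPSCs, and Mthfd2 of the folate cycle 11.96 ± 4.05 FPKM in YAP colonies against 49.3 ± 4.59 FPKM in control iPSCs. Its paralog Mthfd2l rose to 12.4, 16.3 and 12.2 FPKM in the YAP colonies, against 1.82, 1.75 and 1.28 FPKM in the control iPSCs. Mtr, methionine synthase, and Cth, which makes cysteine, also rose, at 32.1 ± 1.203 and 38.3 ± 6.37 FPKM in YAP colonies, against 10.1 ± 0.735 and 14.6 ± 2.68 FPKM in control iPSCs. Serine synthesis genes Phgdh and Psat1 were not called. Asns, asparagine synthetase, fell to 52.4 ± 3.44 FPKM in YAP colonies against 272 ± 40.2 FPKM in control iPSCs and Atf4, its activator, to 60.99 ± 7.43 FPKM in YAP colonies against 140.4 ± 10.8 FPKM in control iPSCs. In the ATF4 and unfolded protein list 6 of 31 fell and 2 rose, and the chaperone genes Hspa5 and Hsp90b1 were not called. Cholesterol and fatty acid genes fell in 7 of 36 cases and rose in 2. The share called was 25% in this list and 25.8% in the ATF4 list, below the 31.7% of all tested rows.

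Among 42 iron and redox genes 14 fell and 5 rose. The ferritin light chain gene Ftl1 was at 209, 275 and 267 FPKM in the YAP colonies, against 1319, 1033 and 935 FPKM in the control iPSCs (log2 fold change -2.12, SE 0.16, limma adjusted p = 3.41e-05), and the heavy chain gene Fth1 at 162, 179 and 179 FPKM in the YAP colonies, against 585, 437 and 462 FPKM in the control iPSCs. Gpx4, which protects membrane lipids, averaged 38.7 ± 4.39 FPKM in YAP colonies against 148 ± 32.7 FPKM in control iPSCs, and Nfe2l2, the master regulator NRF2, 13.5 ± 0.0553 FPKM in YAP colonies against 35.5 ± 2.52 FPKM in control iPSCs. Its targets Hmox1, Srxn1 and Nqo1 fell, while Txnrd1, Gsr and Gclc were not called. Mgst1, a membrane glutathione transferase, was at 97.8, 63.8 and 62.4 FPKM in the YAP colonies, against 1.59, 0.992 and 1.43 FPKM in the control iPSCs. Among 41 lysosome and autophagy genes 5 rose and 5 fell, so that 24.4% were called, below the 31.7% of all tested rows.

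Immune genes moved both ways, within families too. Ifitm3 rose and Ifitm1, beside it on chromosome 7, fell. Ifitm3 was at 403, 627 and 587 FPKM in the YAP colonies, against 191, 149 and 142 FPKM in the control iPSCs, and Ifitm1 at 40.2, 25.7 and 22.3 FPKM in the YAP colonies, against 294, 217 and 220.3 FPKM in the control iPSCs. Of 25 interferon and sensing genes 6 rose and 4 fell, and Isg15, Ifit1, Ifit3 and Mx1 were below 0.2 FPKM on average in each group. B2m, the light chain of MHC class I, was at 179, 186 and 179.8 FPKM in the YAP colonies, against 9.73, 9.44 and 8.798 FPKM in the control iPSCs (log2 fold change 4.14, SE 0.08, limma adjusted p = 1.11e-07). The heavy chain genes H2-K1 and H2-D1 were not called, at 9.397 ± 0.953 and 4.002 ± 0.736 FPKM in YAP colonies, against 13.7 ± 3.12 and 4.66 ± 0.991 FPKM in control iPSCs, and Psmb8 and Psmb9 of the immunoproteasome were below 1 FPKM. Among 20 chemokine and cytokine genes 10 rose and 5 fell. Ccl7 was at 6.97, 17.1 and 11.7 FPKM in the YAP colonies, against 0.232, 0.164 and 0 FPKM in the control iPSCs, and Ackr3 and Cxcr4, both receptors of Cxcl12 and both on chromosome 1, averaged 33.8 ± 3.27 and 17.9 ± 5.03 FPKM in YAP colonies, against 2.37 ± 0.3001 and 1.06 ± 0.136 FPKM in control iPSCs. Mdk, the growth factor midkine, fell to 0.225, 0.302 and 0.763 FPKM in the YAP colonies, against 63.95, 57.5 and 49.5 FPKM in the control iPSCs.

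**Figure D5:**
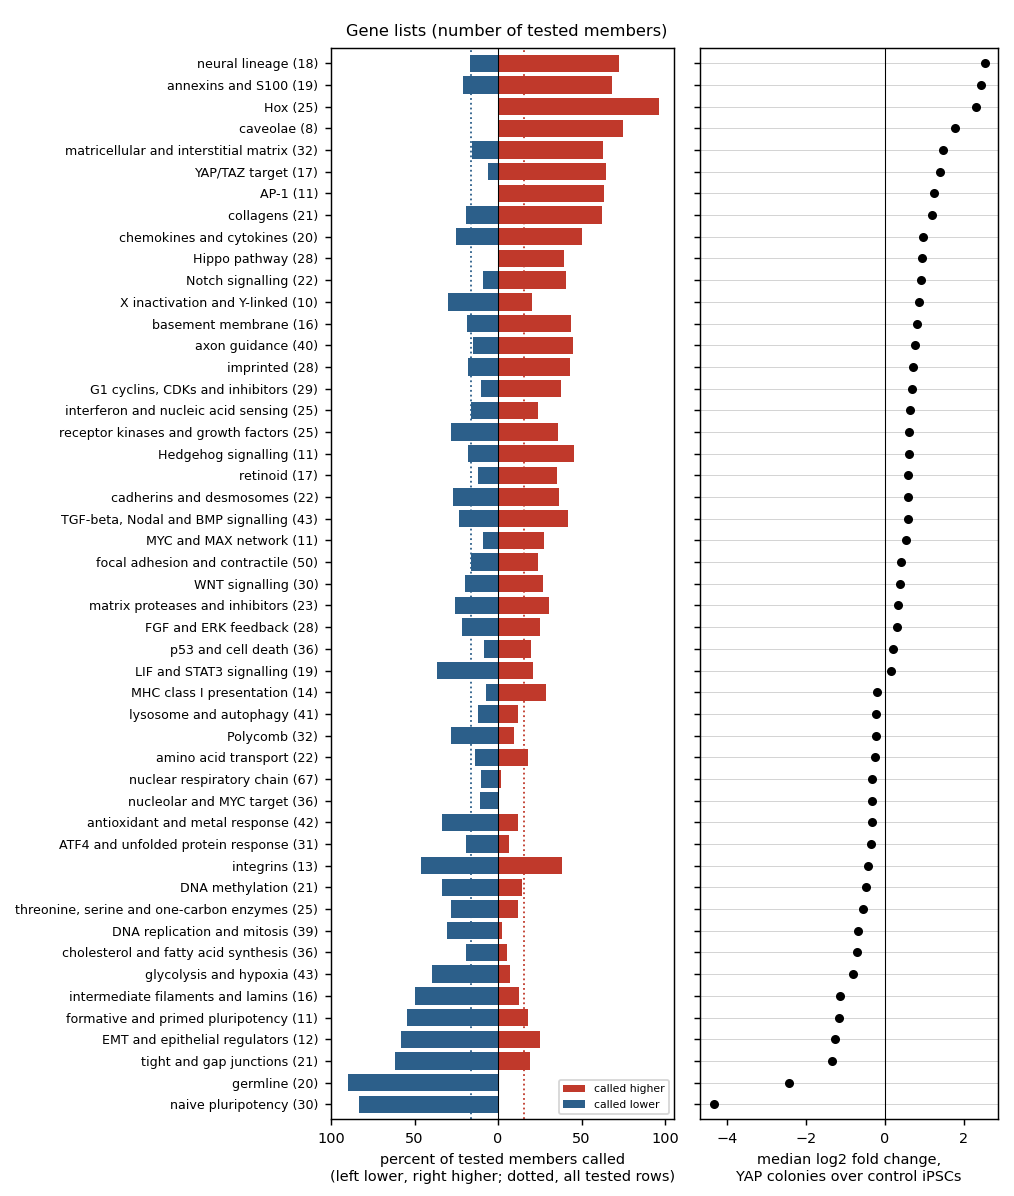
Percent of tested members called higher (red, to the right) and lower (blue, to the left) in YAP colonies for each gene list, beside the median log2 fold change of the list. Dotted lines mark 15.6% and 16.2% of all tested rows, and lists run from naive pluripotency at the bottom to neural lineage at the top.

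At the end of chromosome 4 many neighbouring genes fell. Beyond 140 Mb (mm10), 102 of 152 tested protein-coding genes fell and 2 rose, with a median of -1.26, and of the 19 zinc-finger genes there named Zfp or Rex2, 18 fell, with a median of -4.57. Over the rest of the chromosome the windows of 20 Mb had medians between -0.34 and 0.32.

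Values of exactly 0 limit single genes and, as given below for the Hox list, the counts of some lists. Of the tested rows, 149 were listed at 0 in all 3 control libraries, of which 79 were called higher, and 365 were listed at 0 in all 3 YAP colony libraries, of which 276 were called lower. Some are genes that every cell uses. Rpl28, a ribosomal protein gene, had 95.2, 23.98 and 99.01 FPKM in the YAP colonies and a listed value of 0 in each control library, and Ndufb2, a subunit of complex I, was listed at 0 in every YAP colony library and at 81.5, 78.7 and 71.2 FPKM in the control iPSCs. All 37 rows of the mitochondrial genome were listed at 0. No fold is given for such genes, and Lats2, Tagln, Pfkp, Krt42, Esrp1 and Eng are among them. Bmp8b, counted as a rise in the TGF-beta list, was listed at 0 in each control library.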

How the data were processed

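Polyadenylated RNA was sequenced from 9 mouse libraries in 3 groups of 3, of which 6 are compared here. Trizol was used to extract RNA and a stranded kit to prepare libraries, per the labels' protocols. TopHat, Cufflinks and mm10 are named in the submitters' processing notes, without versions or settings. FPKM values per gene and library were deposited, and columns were matched to samples by their labels. FPKM totals are not read counts, and reads shared between near-identical genes and pseudogenes, which held 37.5% to 41.5% of FPKM, cannot be told apart. An exact 0 can be a failed estimate.

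Rows averaging at least 1 FPKM across the 6 libraries entered limma 3.58.1 (R 4.3.3) after log2(FPKM + 1) transformation, as 2 group means with a trended variance prior, two-sided, with Benjamini-Hochberg adjustment over all 13674 rows. Fold changes of low genes are understated on this scale. A gene near 0 in a group was tested only if the other group was high enough. The fit was tested on simulated data.

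The members, the 49 gene lists, the cell type markers and the tests were chosen with earlier results of these data known, and lists got no test of their own. Named genes were fixed genes, the 4 called members of each list with the largest change each way, the 10 largest changes each way and the 5 highest levels of each group, and the markers. Further genes are named where they complete a pathway or a count, and these were chosen after their values were seen. The loci are those of the deposited table, and start regions came from RefSeq. Alternatives were other pseudocounts and filters, 3 other scalings, a fit of all 9 libraries, a replicate block, array weights, another variance prior and each library left out. Chosen after seeing the data were fits without X and Y rows, without chromosome 1 rows, and with each chromosome's median set to 0. Figures were drawn with matplotlib.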

Additional observations from a re-analysis of the deposited data

How the results depend on the processing

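Of 413 named genes in the fit, 327 had the same call in every alternative that tested them. Genes called higher and lower numbered 1068 and 1180 with a pseudocount of 5, and 1381 and 1346 with a minimum mean of 5 FPKM, which tests fewer rows. With a pseudocount of 5 the calls lost included Cav1 (0.74), Col1a1 (0.55), Col1a2 (0.44), Col3a1 (0.57), Zeb1 (0.89), Lifr (-0.84) and Axin2 (-0.43). After quantile normalization Atf4 (-0.96) was not called. The other alternatives gave counts within 1.5 times, from 1887 to 2501 higher and from 1620 to 2518 lower. Leaving out each library gave 2025 to 2187 higher and 2098 to 2262 lower. When only protein-coding rows were kept and rescaled to equal totals, the median of these 11352 rows was 0.12 and 2232 were higher against 1620 lower. Over 11338 protein-coding rows, 1950 were higher and 1832 lower at the deposited values, against 2222 and 1620 after rescaling. Among rows above 0 in all 6 libraries, which are fewer, 1962 were higher and 1675 lower, and the Hox list had 9 higher. The caveolae median was -0.48 with the minimum of 5 FPKM, where few members were left. Signs turned for Hsp90ab1 (0.020 on rescaled protein-coding rows, 0.10 after quantile normalization, 0.047 with chromosome medians at 0), for Rpl41 (0.068 after quantile normalization, and -0.32 to 0.0033 with a library left out, the sign turning without control replicate 1) and for Ncl (-0.20 with chromosome medians at 0), none of them called. The cause was not tested. Without chromosome 1 rows 1887 were higher and 2137 lower, and without X and Y rows 2007 and 2122.

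Same-numbered replicates did not deviate together (r of their deviations from the group means -0.01, 0.03 and 0.05), so the numbers were not taken to pair the samples. With the replicate number as a block, 2125 genes were higher and 2206 lower.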
